A study of Mus musculus with 9 samples.

Results

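Dual-alpha T cells are described here, that is, cells in which a single productive T cell receptor beta chain (TRB) was found together with 2 different productive alpha chains (TRA). They were selected by counting contigs: a cell barcode was kept when its productive contigs with a junction comprised exactly 1 TRB and exactly 2 TRA. Of 29717 barcodes with a productive chain in 8 libraries, 1329 met this rule, and 626 of them lay in the 6 libraries that each held a single node type and genotype. They were compared with 16731 single-alpha cells, which held 1 TRB and 1 TRA (9631 in the 6 libraries), and with 260 barcodes that held 2 TRB and 2 TRA. The counts of chains per barcode chose the members and are given as a description. T cell identity was read from the TRB and TRA contigs alone, since no expression table was used.

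The libraries were made from lymph nodes of female mice aged 10 to 11 months, either wild type (WT) or 5xFAD, a transgenic mouse model of Alzheimer's disease whose transgenes are driven by the neuronal Thy1 promoter. Inguinal nodes (iLN) and the deep (dCLN) and superficial (sCLN) nodes of the neck were dissociated with Liberase and DNase, the cells were hashed with oligo-tagged antibodies and combined into composite samples, and immune receptor libraries were built with a 10x Genomics 5' kit. Each node type had 1 library per genotype. The number of animals behind a library is not given in the sources used here, so p-values over libraries measure the spread between libraries, which may be technical. A seventh library, titled CD4, was dCLN tissue deposited as 2 tables that shared 6825 barcodes (of 6901 and 6913) although 1 table was labelled WT and the other 5xFAD; the first was used and its genotype was treated as unknown. An eighth library, called mixed here, was titled with all 3 node types and both genotypes. As neither can be assigned to a single genotype, their values are given beside those of the 6.

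A T cell precursor first rearranges the beta locus and then the alpha locus. Alpha rearrangement proceeds on both chromosomes and is not shut off by a first productive join, so a cell can carry a productive alpha chain from each chromosome, whereas beta rearrangement is held to a single functional allele in most cells. At the alpha locus a V segment (TRAV) joins a J segment (TRAJ). Successive rearrangements on the same chromosome replace a join at the V-proximal end of the TRAJ cluster, where gene numbers are high, with joins progressively nearer its V-distal end, where they are low. In the GRCm38 mouse genome the 60 annotated TRAJ genes lie on chromosome 14 at chr14:54155005-54218842, and the 128 TRAV genes at chr14:52427928-53977678.

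The same 3 chains were found together in more than 1 barcode in 12 dual-alpha clones, which covered 27 barcodes in 5 libraries. The junctions of 4 of these clones are printed. They show a single TRB junction that accompanies the same pair of TRA junctions in separate droplets. Only 27 of the 1329 members were in such clones, and the others had no repeat of their 3 chains within their library. A junction runs from the codon of the conserved cysteine at the end of the V segment to that of the conserved phenylalanine in the J segment, and each is given 5′ to 3′ in lower case. The first 3 clones had 3 barcodes each and the fourth had 2.
CD4-titled library, clone with TRBV13-1 and TRBJ2-5, TRB junction: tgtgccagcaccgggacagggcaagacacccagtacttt
its first TRA junction, TRAV6-5 with TRAJ23: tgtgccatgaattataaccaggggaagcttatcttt
its second TRA junction, TRAV15-1/DV6-1 with TRAJ31: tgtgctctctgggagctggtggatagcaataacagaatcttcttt
CD4-titled library, clone with TRBV4 and TRBJ2-1, TRB junction: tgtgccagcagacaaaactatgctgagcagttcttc
its first TRA junction, TRAV11 with TRAJ32: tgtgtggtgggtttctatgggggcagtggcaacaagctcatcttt
its second TRA junction, TRAV14D-3/DV8 with TRAJ48: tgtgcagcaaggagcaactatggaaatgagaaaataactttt
mixed library, clone with TRBV15 and TRBJ2-5, TRB junction: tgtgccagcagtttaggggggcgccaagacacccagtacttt
its first TRA junction, TRAV13D-2 with TRAJ13: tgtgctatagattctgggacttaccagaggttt
its second TRA junction, TRAV15-2/DV6-2 with TRAJ34: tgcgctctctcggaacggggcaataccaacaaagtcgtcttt
dCLN WT library, clone with TRBV13-2 and TRBJ2-4, TRB junction: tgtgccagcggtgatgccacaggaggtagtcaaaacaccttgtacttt
its first TRA junction, TRAV12D-3 with TRAJ27: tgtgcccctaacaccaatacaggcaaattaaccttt
its second TRA junction, TRAV6N-6 with TRAJ37: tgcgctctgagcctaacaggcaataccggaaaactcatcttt

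In the dCLN WT clone the chain with TRAJ27 had 7 and 9 unique molecular identifiers (UMIs, each standing for a captured transcript) in the 2 barcodes, and the chain with TRAJ37 had 4 and 4. In the TRBV4 clone the chain with TRAJ32 had 5, 4 and 3 UMIs and the chain with TRAJ48 had 4, 7 and 4, so the chain with more UMIs was not the same one in every sister barcode. Of the 12 clones, 4 had the same chain ahead in UMIs in all barcodes, 5 had each chain ahead in some barcode, and 3 had a tie in a barcode and no reversal.

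Sister barcodes carried the same alpha pair in every case where both were dual-alpha. Within libraries, 45 pairs of barcodes with 1 TRB shared the TRB junction and a TRA junction and included a dual-alpha cell. In 18 of them both barcodes were dual-alpha, and all 18 had the same 2 TRA junctions; in 0 pairs was only 1 of the 2 shared. In the other 27 pairs the sister barcode showed a single TRA chain. That chain was the one with more UMIs (the major chain) of the dual-alpha cell in 15 pairs and the one with fewer (the minor chain) in 12. Pairs drawn from the same clone are not independent of each other. The single-alpha class thus holds sister barcodes of dual-alpha cells. How many of its cells have a second alpha chain that was not seen was not tested. This limit applies to the shares and to every comparison with single-alpha cells below. The second CD4-titled table, a repeat of the same cells, listed 435 dual-alpha cells against 430 in the first, with 388 shared; 35 of the 42 that were dual-alpha in the first table only were single-alpha in the second.

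Dual-alpha cells made up 3.21% to 8.0% of cells with 1 TRB and 1 or 2 TRA in the 6 libraries. Barcodes with a TRB but no TRA, 747 to 1615 per library, are not in this denominator. In dCLN they numbered 55 of 1227 cells in WT (4.48%, exact Clopper-Pearson 95% interval 3.39 to 5.79) and 175 of 2742 in 5xFAD (6.38%, 5.5 to 7.36). In sCLN they numbered 64 of 1123 in WT (5.70%, 4.42 to 7.22) and 186 of 2326 in 5xFAD (8.0%, 6.93 to 9.17). The share was thus higher in 5xFAD in both cervical nodes. In iLN the order was the opposite, with 109 of 1688 cells in WT (6.46%, 5.33 to 7.74) and 37 of 1151 in 5xFAD (3.21%, 2.27 to 4.40). The CD4-titled library had 430 of 4930 (8.72%, 7.95 to 9.54) and the mixed library 273 of 2873 (9.50%, 8.45 to 10.6), each above the 6. These intervals, like the others here, cover counting error only.

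**Figure D1:**
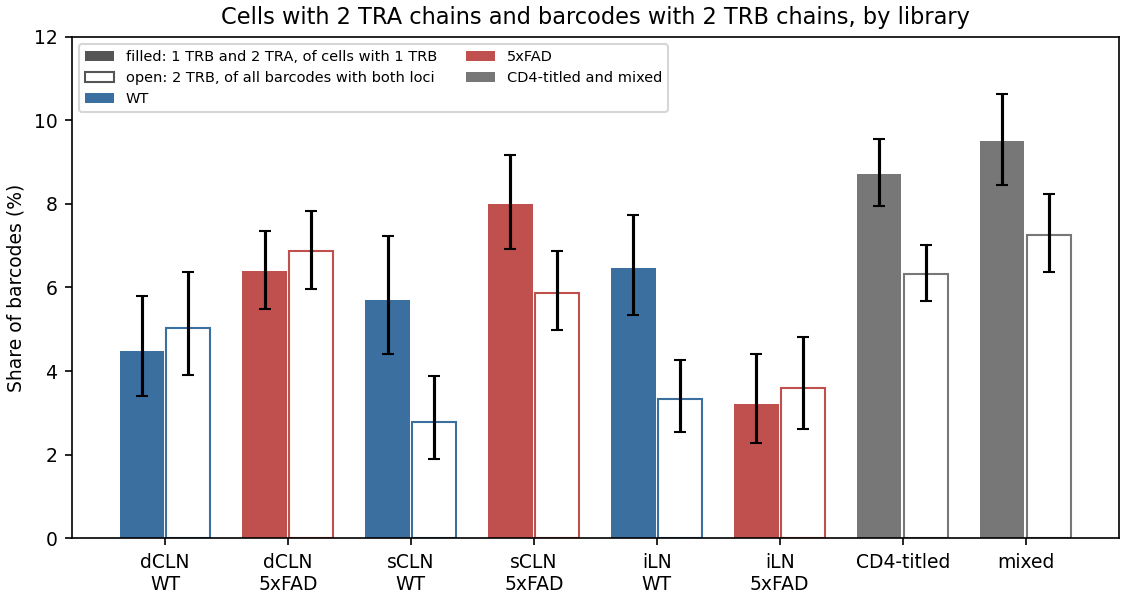
Filled bars show dual-alpha cells as a percentage of cells with 1 TRB and 1 or 2 TRA, and open bars show barcodes with 2 TRB as a percentage of all barcodes with both loci, for each of 8 libraries, with exact 95% intervals as error bars. The filled bars run from 3.21% in iLN 5xFAD to 9.50% in the mixed library.

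The share did not differ by genotype beyond the spread over node types. WT libraries averaged 5.55% ± 1.00 and 5xFAD libraries 5.86% ± 2.43 (SD, n = 3 each). The difference was 0.318 percentage points, made up of 1.90 in dCLN, 2.30 in sCLN and -3.24 in iLN, with p = 1 in an exact two-sided sign-flip permutation test over the 3 node types, which cannot go below 0.25. Without iLN the difference was 2.10 points, and without dCLN or sCLN it turned to -0.473 or -0.672. The V regions of alpha chains of dual-alpha cells matched the reference genome in 53.1% to 54.6% (WT) and 14% to 21.6% (5xFAD). Genotype and the germline type of the alpha locus cannot be told apart in this or the other comparisons of 5xFAD with WT. The iLN 5xFAD library, the lowest in dual-alpha share, also had the lowest share of barcodes with both loci (43.1%, against 52.5% to 66.6% in the other 5). Barcodes with 2 TRB, of which doublets of cells are one source, made up 2.77% (sCLN WT) to 6.86% (dCLN 5xFAD) of barcodes with both loci, and 6.33% and 7.26% in the CD4-titled and mixed libraries. The part of doublets and of capture in the dual-alpha share was not tested. No barcode in the 8 libraries had more than 2 TRA or more than 2 TRB, and 0 barcodes had 2 TRA without a TRB. Whether chains per barcode were restricted before deposit is not given in the sources used here.

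The order of the 6 libraries was the same after thinning to a fixed depth, and varied between classes of TRB UMIs with few dual-alpha cells. With every cell thinned to 10 UMIs over its TRB and TRA chains, by exact expectation and leaving out 0 to 6 dual-alpha and 149 to 313 single-alpha cells per library, the share was 4.77% (WT) and 6.34% (5xFAD) in dCLN, 5.82% and 7.81% in sCLN, and 6.51% and 3.49% in iLN, the same order as without thinning. Among cells of the 6 libraries pooled, the share was 5.22% at 1 to 4 TRB UMIs, 5.86% at 5 to 9, 5.76% at 10 to 14 and 7.56% (6.50 to 8.73) at 15 or more. Single libraries did not share 1 direction between 1 to 4 and 15 or more TRB UMIs. The share was 1.99% and 7.29% in dCLN WT, 3.23% and 4.98% in sCLN WT, 4.03% and 10.8% in sCLN 5xFAD, and 6.69% and 8.40% in iLN WT. It was 8.82% and 6.68% in dCLN 5xFAD and 4.08% and 2.03% in iLN 5xFAD. At 1 to 4 TRB UMIs dCLN 5xFAD was thus the highest of the 6, and at 15 or more sCLN 5xFAD was. Their intervals overlapped those of iLN WT in the same class. These were 6.15 to 12.2 and 4.19 to 10.0 at 1 to 4, and 8.45 to 13.5 and 5.78 to 11.7 at 15 or more. These classes held 4 to 67 dual-alpha cells per library.

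The 2 alpha chains of a dual-alpha cell used TRAJ genes that lay closer together than those of chains taken from different cells. The distance was the absolute difference of TRAJ gene numbers, which follow the order of the genes on the chromosome. For the comparison, the major chain of each cell was set against the minor chain of every other dual-alpha cell of the same library. The mean distance within a cell was 9.56, 10.1 and 8.49 in the WT libraries of dCLN, sCLN and iLN, and 11.5, 10.0 and 10.0 in their 5xFAD counterparts. Between cells it was 15.8, 17.5 and 15.9 for WT and 18.4, 16.8 and 16.8 for 5xFAD. The 2 sets of values did not overlap. Over the 6 libraries the mean was 9.95 ± 0.99 within cells and 16.9 ± 0.99 between cells, a difference of -6.90 ± 0.44 (SD, n = 6), lower within cells in 6 of 6. The exact two-sided sign-flip permutation test gave p = 0.03125, the smallest it can give, and 0.094 after Benjamini-Hochberg adjustment over 3 within-cell comparisons, which misses 0.05. The CD4-titled library had 9.15 against 17.2 and the mixed library 9.32 against 16.2. Over all 8 libraries the difference was -7.04, lower in 8 of 8, with exact permutation p = 0.0078, again the smallest possible, and 0.0234 adjusted. The CD4-titled and mixed libraries were meant as values beside the 6. Whether they share animals with the 6 is not given, so the 8 may not be independent units.

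**Figure D2:**
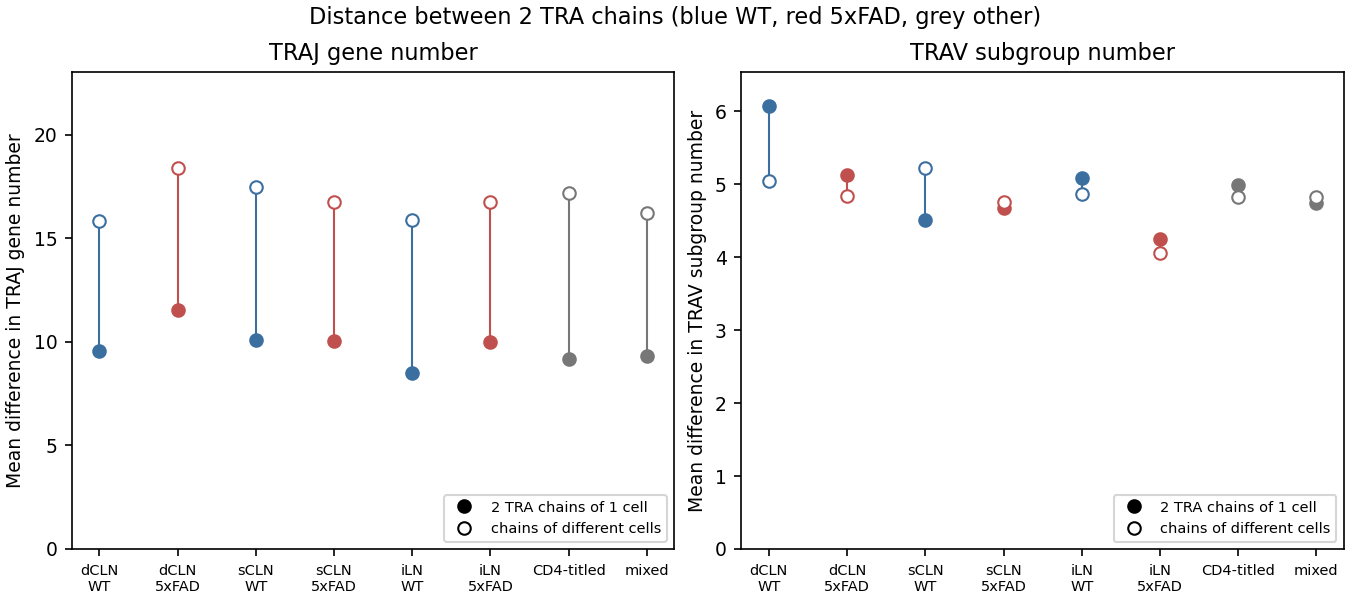
Mean difference in TRAJ gene number (left) and TRAV subgroup number (right) between the 2 TRA chains of a dual-alpha cell (filled points) and between chains of different dual-alpha cells of the library (open points), for each of 8 libraries. The filled TRAJ points lie between 8.49 and 11.5 and the open ones between 15.8 and 18.4, whereas the TRAV points lie close together, with no common direction.

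Short distances were more frequent within cells, and long ones less so. In the 6 libraries pooled, 26 of 626 cells (4.15%, 2.73 to 6.03) used the same TRAJ gene in both chains, against 2.73% of pairs between cells. A distance of 1 to 5 was seen in 208 cells (33.2%, 29.5 to 37.1) against 17.1% between cells, and a distance of 6 to 10 in 168 cells (26.8%, 23.4 to 30.5) against 17.4%. At 11 to 20 the shares were 23.2% and 27.6%. Long distances were rarer within cells: 21 to 30 in 52 cells (8.31%, against 19.3%) and 31 or more in 27 cells (4.31%, 2.86 to 6.21, against 15.9%). The CD4-titled library had 2.56% of cells at 31 or more against 16.1% between cells, and the mixed library 4.03% against 13.0%.

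**Figure D3:**
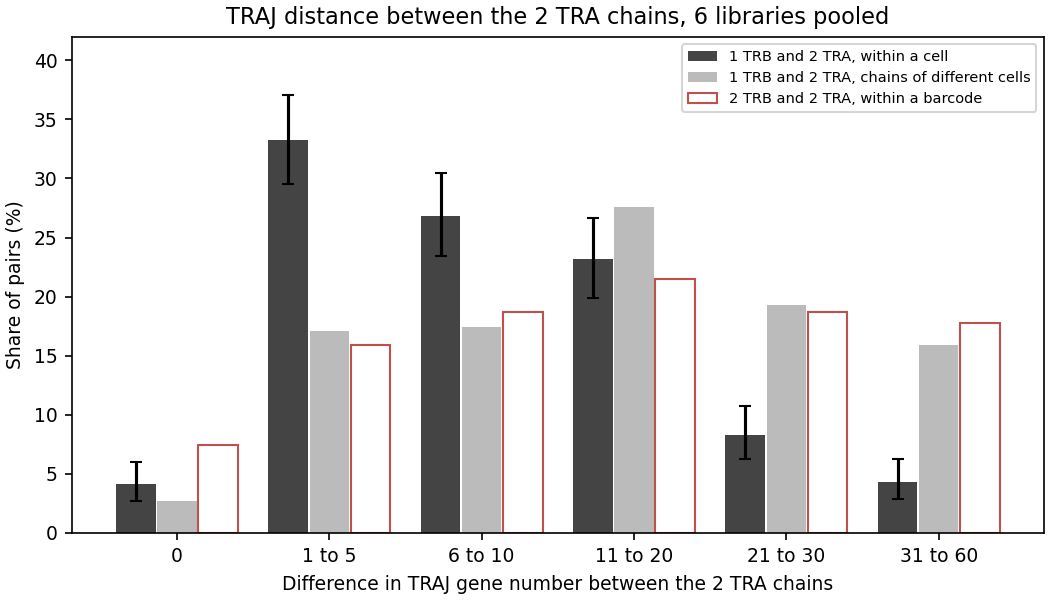
Share of pairs in each class of TRAJ distance for the 6 libraries pooled: dark bars, the 2 TRA chains of 626 dual-alpha cells with exact 95% intervals; grey bars, chains of different dual-alpha cells; open bars, the 2 TRA chains of 107 barcodes with 2 TRB. The dark bars exceed the grey ones up to a distance of 10 and lie below them from 11.

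Barcodes with 2 TRB and 2 TRA, which the same tables provide as a class in which 2 cells may share a droplet, had a mean TRAJ distance of 16.7 within a barcode and 18.1 between barcodes (106 barcodes of the 5 libraries with more than 1 such barcode). The libraries differed in these 2 values. They were 20.4 and 18.2 in dCLN WT (13 barcodes) and 17.02 and 17.97 in dCLN 5xFAD (45). In sCLN they were 16.7 and 21.6 for WT (6) and 17.2 and 17.5 for 5xFAD (30). In iLN WT (12) they were 10.25 and 18.4, the former in the range of dual-alpha cells. In the CD4-titled library these values were 16.0 and 16.1 over 83 barcodes, and in the mixed library 15.8 and 17.5 over 70. A distance of 31 or more was found in 19 of 107 such barcodes (17.8%) of the 6 libraries, against the 4.31% of dual-alpha cells. Both chains used the same TRAJ gene in 8 of the 107 (7.48%), also above the 4.15% of dual-alpha cells. Between such barcodes this share was 3.07%, over the 5 libraries. No test of the difference between the 2 classes was made.

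The closeness was seen at both ends of the TRAJ cluster and in its middle. The V-proximal genes were taken as TRAJ40 and above and the V-distal ones as TRAJ20 and below. Of 194 cells whose major chain was V-proximal, 128 (66.0%, 58.8 to 72.6) had a V-proximal minor chain, against 213 of all 626 (34.0%), and 15 (7.73%) had a V-distal one. Of 158 cells whose major chain was V-distal, 91 (57.6%, 49.5 to 65.4) had a V-distal minor chain, against 163 of all 626, and 21 (13.3%) a V-proximal one. Of 274 cells with a major chain from the middle of the cluster, 153 (55.8%, 49.7 to 61.8) had a minor chain from the middle, against 250 of all 626 (39.9%). The CD4-titled library gave 63.2% and 60.5% for the like pairs, and the mixed library 67.7% and 48.2%. Across cells, Spearman's rho between the TRAJ numbers of the 2 chains was 0.512 (175 cells, dCLN 5xFAD) to 0.700 (109 cells, iLN WT) in the 6 libraries. It is given as a description, since the cells of a library share their depth and animals.

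**Figure D4:**
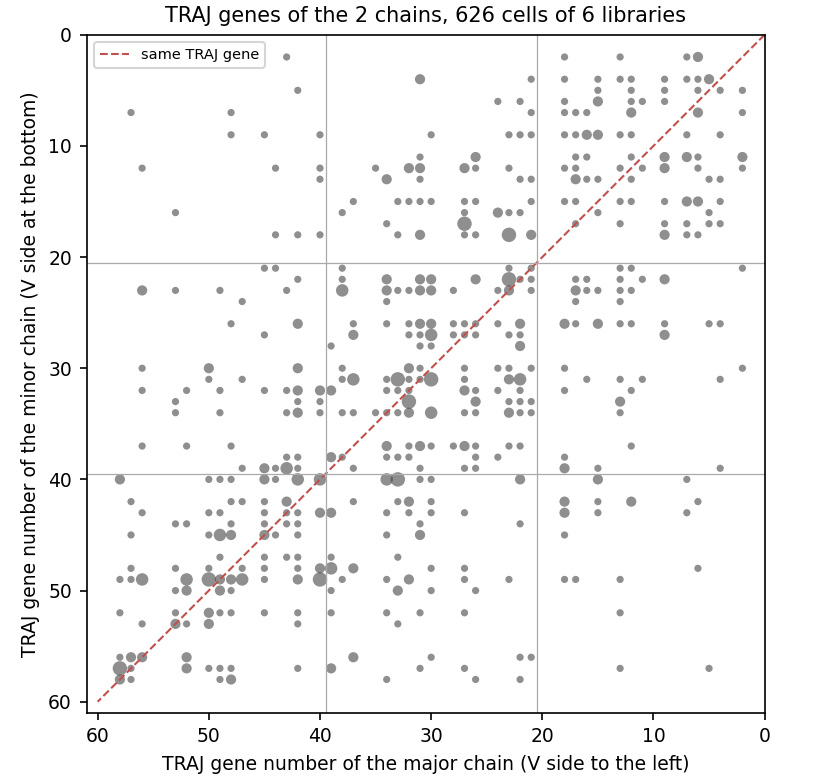
TRAJ gene number of the major chain (x axis) and of the minor chain (y axis) for 626 dual-alpha cells of the 6 libraries, with both axes running from the V-proximal to the V-distal end and point area proportional to the number of cells. The cells crowd along the dashed line of equal TRAJ gene, and grey lines part V-proximal (40 and above), middle and V-distal (20 and below) genes.

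Partner chains are given by single TRAJ gene as a description, with no test between genes. Each of the 11 V-proximal genes with at least 20 chains in dual-alpha cells of the 6 libraries had more V-proximal than V-distal partner chains, with partner medians of 35.5 to 54. Each of the 9 V-distal ones had more V-distal partners, with medians of 12 to 26. Of 13 genes from the middle, 7 had more V-proximal and 6 more V-distal partners. Taking either chain in turn, TRAJ58, the highest-numbered gene with at least 20 chains in dual-alpha cells of the 6 libraries, had a partner chain with a median TRAJ number of 54, and 17 of its 20 partners were V-proximal and 0 V-distal. TRAJ49, with 51 chains, had a partner median of 47. TRAJ31, in the middle of the cluster and the gene with the most chains (55), had a partner median of 30. TRAJ6, with 21 chains, had a partner median of 12, and 17 of its partners were V-distal. TRAJ4, with 20 chains, had a partner median of 14 and 0 V-proximal partners. TRAJ18 (38 chains) had a partner median of 26, with 11 V-distal and 9 V-proximal partners, and TRAJ42 (44 chains) had a partner median of 35.5. These genes were chosen after their counts were seen. In the clones printed above, the paired TRAJ genes were 8, 16, 21 and 10 apart.

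By UMIs of the minor chain, the mean TRAJ distance within cells of the 6 libraries was 11.9 ± 12.3 (SD over 28 cells) for minor chains with 1 UMI, 9.66 ± 8.27 (241 cells) with 2 to 3 and 10.3 ± 9.37 (357 cells) with 4 or more. No test was made of these values. A genotype difference was not found: the within-minus-between difference averaged -7.01 ± 0.66 over WT libraries and -6.79 ± 0.07 over 5xFAD ones (SD, n = 3), 0.221 apart with exact permutation p = 0.5 over 3 node types, where 0.25 is the smallest possible.

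For TRAV subgroups no such difference was found. The subgroup number, which joins the duplicated copies of a TRAV gene and only loosely follows the order on the chromosome, differed by a mean of 4.95 ± 0.64 within cells and 4.80 ± 0.40 between cells. The difference was 0.154 ± 0.57 (SD, n = 6), higher within cells in 4 of 6 libraries, with exact permutation p = 0.5625 (adjusted 0.5625). It was 1.03 in dCLN WT and between -0.712 and 0.284 in the other 5; without dCLN WT it turned to -0.0216. Both chains had the same subgroup in 54 of 626 cells (8.63%) against 10.5% between cells. Measured in kilobases between TRAV genes, over chains with a single gene call, the difference was 11.3, with exact permutation p = 0.6875. In kilobases the TRAJ difference was -7.23, lower in all 6 libraries.

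In the WT libraries the V regions of the 2 alpha chains usually differed in germline type when scored by an exact match to reference transcripts. A V region was scored as reference when it matched an annotated GRCm38 V transcript exactly up to the junction. The score was read in 10 TRAV subgroups (1, 4, 5, 9, 10, 13, 14, 16, 19 and 21) in which under 2% of at least 30 chains matched in the 5xFAD libraries, so that the value of 5xFAD follows from the choice. Of dual-alpha cells with both chains in these subgroups, 7 of 9 WT cells of dCLN, 23 of 24 of sCLN and 29 of 30 of iLN had 1 reference and 1 non-reference chain. Together these were 59 of 63 (93.7%, 84.5 to 98.2), while 2 cells had 2 reference chains and 2 had none. Between chains of different cells the share was 52.8%, 48.0% and 53.0% in these libraries, so the excess within cells was 38.8 percentage points ± 12.2 (SD, n = 3 WT libraries). In 5xFAD it was 0 of 84 cells. With the deposited V identity of 1 as the score, over all subgroups, there was no such excess: 38.2%, 37.5% and 33.9% within cells of WT dCLN, sCLN and iLN against 37.4%, 39.2% and 33.1% between cells. The cause of the difference between the scores was not tested. The test of the transcript match over the 6 libraries gave a mean excess of 19.4 points with exact permutation p = 0.25 (adjusted 0.375); 3 of its 6 values are 0 by the choice of subgroups, which leaves no smaller p.

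**Figure D5:**
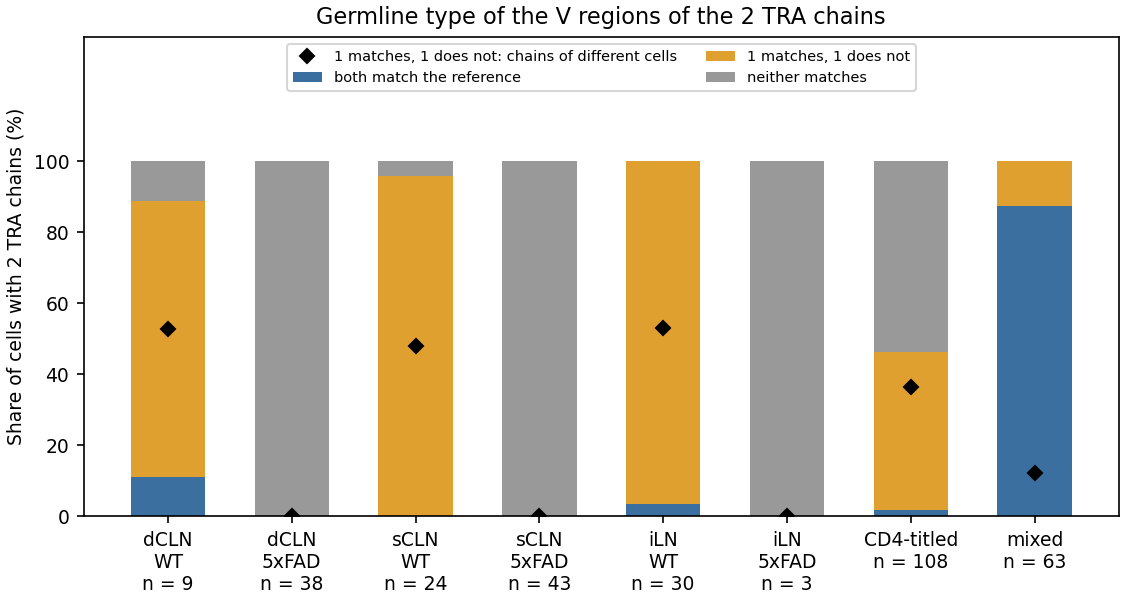
Dual-alpha cells with both TRA chains in the 10 subgroups, by whether both (blue), 1 (yellow) or neither (grey) of the V regions matched the GRCm38 reference, for each of 8 libraries with the number of cells under each bar. Diamonds give the share with 1 of each type among chains of different cells. The yellow share stands at 77.8% to 96.7% in the WT libraries, above the diamonds at 48.0% to 53.0%.

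Over all subgroups, the reference was matched by 53.1% to 54.6% of TRA chains of dual-alpha cells in the WT libraries and 14% to 21.6% in the 5xFAD ones. It was matched by 34.7% in the CD4-titled and 96.0% in the mixed library. The mixed library thus lay above each of the 6, although its title names the same node types and genotypes. The cause was not tested. Without the restriction on subgroups, 190 of 228 WT dual-alpha cells (83.3%, 77.8 to 87.9) had 1 chain of each type. This was 85.5% in dCLN, 81.3% in sCLN and 83.5% in iLN, against 50.4%, 49.8% and 50.5% between cells. In 5xFAD it was 23.4%, 25.3% and 43.2%, against 24.1%, 24.5% and 33.8%, the last over 37 cells. The mean excess over the 6 libraries was 18.2 points with exact permutation p = 0.0625. The CD4-titled library had 48 of 108 cells with 1 of each in the 10 subgroups (44.4%, against 36.5% between cells), 58 with no reference chain and 2 with 2. The mixed library had 8 of 63 (12.7%, against 12.1%) and 55 with 2 reference chains.

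WT barcodes with 2 TRB and 2 TRA had 1 chain of each type in 3 of 11 cases in the 10 subgroups and in 14 of 31 over all subgroups (45.2%, 27.3 to 64.0). By UMIs of the minor chain, 26 of 26 WT dual-alpha cells with 2 to 3 and 31 of 33 with 4 or more had 1 chain of each type. With 1 UMI it was 2 of 4, beside 48.0% to 53.0% between cells.

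A pair of sCLN WT cells in which both chains used the same TRAV gene shows the 2 germline types side by side. The bases that differ are in capitals, and positions count from 1 at the first aligned base of the V region. TRAV5-1 lies at chr14:52622566-52623082 and TRAV5D-4 at chr14:53001713-53002232 of GRCm38. The stretches run from base 1 to 60 and from base 123 to 182 of V regions of 267 bases.
TRAV5-1 with TRAJ23, reference chain: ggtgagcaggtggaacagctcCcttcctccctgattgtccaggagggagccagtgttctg
TRAV5-1 with TRAJ38, the other chain: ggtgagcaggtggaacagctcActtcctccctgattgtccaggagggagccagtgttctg
TRAV5D-4 with TRAJ42, reference chain: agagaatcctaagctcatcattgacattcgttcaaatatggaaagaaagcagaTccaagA
TRAV5D-4 with TRAJ49, the other chain: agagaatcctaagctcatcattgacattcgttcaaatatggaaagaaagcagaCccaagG

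The first pair differed by C22A alone, and the second by T176C and A182G. The reference and the other chain had 5 and 8 UMIs in the first cell and 5 and 5 in the second. Within the 10 subgroups, 7 WT dual-alpha cells had both types in the same subgroup, with 1 to 34 differences over the V region. In 2 of the 7 the gene call was the same. Base calls rest on the authors' assembled contigs. These cells were chosen after their sequences were seen.

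The reference chain had fewer UMIs than its partner in 32 of the 59 WT cells with 1 of each type, the same number in 12 and more in 15. The mean log2 difference, reference minus other, was -0.290 in dCLN, -0.264 in sCLN and -0.342 in iLN, or -0.299 ± 0.040 (SD, n = 3), with exact permutation p = 0.25, the smallest possible. Single-alpha cells of the same libraries, split by the type of their only chain, had -0.168 ± 0.045. In dual-alpha cells the difference was 0.0647 in 48 cells of the CD4-titled and 0.596 in 8 cells of the mixed library, the opposite sign to WT. In single-alpha cells of these libraries it was -0.0377 and -0.260, the same sign as in WT.

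The UMI balance of the 2 alpha chains is given as a description. Cells whose second chain was not captured fall in the single-alpha class, and the order of the chains was set by UMIs. The minor chain held a median of 37.5% (iLN WT) to 41.2% (iLN 5xFAD) of the alpha UMIs of a cell in the 6 libraries, and the medians of the CD4-titled and mixed libraries lay in that range. The median minor chain had 3 to 5 UMIs and the median major chain 5 to 8 in the 6 libraries. Both chains had the same number of UMIs in 91 of the 626 cells. The minor chain rested on a single UMI, the lowest a contig can have, in 28 of 626 cells, from 0 of 37 in iLN 5xFAD to 6 of 64 (9.38%) in sCLN WT. In the CD4-titled and mixed libraries this was 45 and 44 cells (10.5% and 16.1%). With at least 2 UMIs asked of every chain, the share of dual-alpha cells was 3.24% to 8.09% in the 6 libraries.

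The TRB chain, which numbered 1 in both classes, gives the depth of a cell apart from the rule. Its mean log2 UMI number was 3.15 ± 0.20 in dual-alpha and 3.06 ± 0.11 in single-alpha cells (SD, n = 6 libraries). The difference of 0.0893 ± 0.21 was positive in 4 of 6 libraries, with exact permutation p = 0.375 (adjusted 0.656 over 14 comparisons of dual-alpha with single-alpha cells or of major with minor chains). The TRA UMIs are given as a description, since cells were selected for a second TRA contig. The mean log2 of the summed TRA UMIs was 3.35 ± 0.20 and 2.42 ± 0.11, a difference of 0.92 ± 0.10, and the major chain alone, the larger of 2, stood 0.22 ± 0.09 above the chain of single-alpha cells.

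Junction lengths of dual-alpha cells were close to those of single-alpha cells. The TRA junction had a mean of 40.7 ± 0.31 nucleotides in dual-alpha and 40.4 ± 0.19 in single-alpha cells. The difference was 0.322 ± 0.26 and positive in 5 of 6 libraries (-0.190 in iLN WT), with exact permutation p = 0.0625 (adjusted 0.219). Bases added at the V-J join numbered 2.87 ± 0.18 and 2.66 ± 0.10, a difference of 0.212 ± 0.14, also positive in 5 of 6 (-0.0467 in dCLN WT) with the same p and adjusted p. In the CD4-titled and mixed libraries the junction length differed by 0.0349 and -0.0490. TRB junctions differed by 0.266 ± 0.82 (exact permutation p = 0.594), and the major and minor chains of a cell by 0.208 ± 0.91 nucleotides (exact permutation p = 0.6875).

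The 2 junctions of a cell differed in length by a mean of 4.08 (sCLN WT) to 5.05 (sCLN 5xFAD) nucleotides, against 4.37 to 5.03 between cells. In 126 of the 626 cells they had the same length. Counting substitutions, insertions and deletions of a base over all 626 pairs, 1 pair was identical, 1 differed by 1 to 3 bases and 9 by 4 to 6. In the CD4-titled library 1 of 430 pairs was identical and 2 differed by 1 to 3 bases. The minor junction also occurred with another TRB in the same library in 25 of 626 cells (3.99%). The major junction did so in 23 (3.67%), and the chain of single-alpha cells in 401 of 9631 (4.16%).

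The V and J genes of dual-alpha cells were tested against those of single-alpha cells with edgeR over 94 features, which comprised 42 TRAJ genes, 19 TRAV subgroups, 21 TRBV genes and 12 TRBJ genes. No feature passed an adjusted p of 0.05, so 0% of the features were called, with 0 called by DESeq2 as well. At an unadjusted p under 0.05, edgeR gave 5 features, 4 with higher and 1 with lower usage in dual-alpha cells, and DESeq2 gave 4. The lowest adjusted p in edgeR was 0.119, for TRAV15, with 12 chains in dual-alpha cells.

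Among features with at least 40 counts in dual-alpha cells and the same direction in at least 5 libraries, TRAJ42 had the largest fitted change. It was 3.72% ± 1.32 of TRA chains in dual-alpha and 2.34% in single-alpha cells (log2 0.53, SE 0.27, edgeR adjusted p = 0.742). In dual-alpha cells TRAJ42 was 4.55%, 3.43%, 1.56%, 3.23%, 4.13% and 5.41% in WT and 5xFAD of dCLN, then of sCLN, then of iLN, and in sCLN WT alone it lay below the single-alpha value of 2.36%. TRAJ32 followed at 3.33% and 2.57% (log2 0.32) and TRAV14 at 7.04% and 8.72% (log2 -0.29). The other 5 named were TRBJ2-5 (0.21), TRAJ22 (-0.19), TRAJ30 (0.13), TRAV8 (-0.12) and TRAV6 (-0.11). TRAJ30 turned to -0.04 with TMM scaling.

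No difference passed at either end of the TRAJ cluster. Of 14 V-proximal TRAJ genes tested, 4 had a positive and 10 a negative fitted change (median log2 -0.16), and of 13 V-distal genes 8 were positive and 5 negative (median 0.09), beside a median of -0.01 over all 94 features. V-proximal genes made up 32.2% ± 5.5 of chains in dual-alpha and 34.1% ± 2.30 in single-alpha cells (exact permutation p = 0.375), and V-distal genes 25.9% ± 3.07 and 25% ± 1.54 (exact permutation p = 0.594; SD, n = 6).

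Invariant alpha chains were counted by gene use. The chain of invariant natural killer T cells, which recognise lipid presented by CD1d, joins TRAV11 to TRAJ18, and that of mucosal-associated invariant T cells, which recognise vitamin B metabolites presented by MR1, joins TRAV1 to TRAJ33. The former, with a junction of 15 amino acids, was found in 0 of 1329 dual-alpha cells and in 17 of 16731 single-alpha cells. Taking 3 counts as an approximate upper limit, the pooled dual-alpha share was under 0.226%. The 17 came from dCLN WT (3), sCLN WT (6), iLN WT (5) and the mixed library (3). The 5xFAD and CD4-titled libraries had 0 in either class. In the WT and mixed libraries taken singly, the limit was 1.10% (mixed) to 5.45% (dCLN WT). The mucosal-associated invariant chain was found in 1 dual-alpha cell, in sCLN WT, and in 30 single-alpha cells. A difference between the classes was not detectable at these numbers.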

How the data were processed

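Contig tables of 8 single-cell TCR libraries were used, a ninth holding the same cells as the CD4-titled one. Cell Ranger 6.0.1, Seurat 4.1.0 and mm10 are named in the submitters' processing notes. V and J genes were called with IgBLAST, per the file headers. The deposited counts are UMIs and reads per contig, not normalized, per the file headers. As a fraction the authors deposited the V identity, used in 1 alternative. Other deposited values are junction and added-base lengths in nucleotides, per the file headers.

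Members, lists and tests were chosen with earlier results of these data known. Productive contigs with a junction were counted per barcode. Between 3458 and 13049 contigs were read per library. TRA chains of a cell were ordered by UMIs, then reads. Barcodes shared by 2 libraries numbered at most 46 per pair of libraries, with at most 1 dual-alpha in both and 0 with a shared junction. No doublet caller was run. The mean over all pairs of chains from different cells, with nothing resampled, served as the comparison within each library. Library means were tested with exact sign-flip permutation, node types or libraries being the units, and p-values adjusted by Benjamini-Hochberg within each family. Germline match used 208 GENCODE V transcripts of GRCm38, and gene positions the same annotation, which matched 11836 of 11844 TRAV chains with a single gene call.

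For feature usage edgeR 4.0.16 (R 4.3.3) was run (quasi-likelihood, library as block, class totals as offset, at least 10 counts), with DESeq2 1.42.0 as an alternative, and was checked on simulated data. All features with an adjusted p under 0.05 were to be named, then the 8 largest changes among features with at least 40 counts in dual-alpha cells and a common direction in at least 5 of 6 libraries. Other computations used Python 3.11.15. Alternatives left out each library or node type, asked for 2 UMIs per chain, counted each clonotype once, or changed the measure or scaling.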

Additional observations from a re-analysis of the deposited data

Results flagged for a closer look

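The difference in dual-alpha share between 5xFAD and WT was -3.24 percentage points in the inguinal nodes, while it was 1.90 in the deep and 2.30 in the superficial cervical nodes. It was picked out because the inguinal pair of libraries moved the opposite way to the others. With 1 library per node and genotype this difference between nodes was not tested.

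Nonproductive TRA contigs, which the comparisons do not use, numbered 37 in the CD4-titled and 32 in the mixed library, and 0 in each of the 6 others. Of single-alpha cells, 6 of 4500 and 4 of 2600 carried such a contig, and 0 dual-alpha cells did. The second CD4-titled table, not used in the comparisons, held 435 dual-alpha cells.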

How the results depend on the processing

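The TRAJ distance within cells kept its direction, and its unadjusted exact permutation p stayed under 0.05, under the 6 alternatives that kept the 6 libraries or added 2, from -7.23 (in kilobases) to -6.86 (at least 2 UMIs per chain). Adjusted over 3 comparisons, the exact permutation p was 0.094 with 6 libraries and 0.0234 with 8, which may not be independent units. Leaving out 1 library gave -7.03 to -6.80, and the summed TRA UMIs 0.894 to 0.947, with exact permutation p = 0.0625 each time, the smallest that 5 libraries allow. The genotype difference in dual-alpha share ranged from -0.672 (without sCLN) and -0.473 (without dCLN) to 2.10 (without iLN). The TRAV distance ranged from -0.0216 (without dCLN WT) to 0.328 when 1 library was left out. The germline excess turned to -3.08 points when the deposited V identity of 1 replaced the transcript match; the cause was not tested. Usage gave 0 called features under all 12 alternatives. Of 96 values for the 8 named features, 4 changed sign: TRAV6 with the minor chain alone (0.0185), TRAV8 with the major chain alone (0.229), and TRAJ30 with TMM factors (-0.0372) and the minor chain alone (-0.306). Comparisons were paired by node type or library, and no block by replicate number was fitted because the labels give none.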
